A study of Arabidopsis thaliana with 20 samples.

Results

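The basic helix-loop-helix (bHLH) family of Arabidopsis thaliana was described here through the open chromatin at its genes. Set aside were 17 named genes, mostly phytochrome-interacting factors, their atypical partners and stomatal and trichome regulators. Not every gene of these kinds was among them: UNE10, ICE2 and MYC1 stayed in. Members were the nuclear protein-coding genes whose product in the TAIR10.1 RefSeq annotation contains the words basic helix-loop-helix in any letter case. Of 122 such genes, 8 belonged to the 17 genes set aside (PIF1, PIF3, PIF4, PIF5, PIF6, PIF7, PIL1, HFR1, PAR1, PAR2, SPCH, MUTE, FAMA, ICE1, GL3, EGL3 and BIM1), which left 114 members of 27444 nuclear protein-coding genes. Read with lower case letters only, the same words gave 111 members, without MYC2, MYC3 and MYC4. The annotation gives 55 members a name and 59 only a gene ID. FIT, BEE1, CIB1, IBH1, RHD6, RSL4 and LHW are bHLH genes whose product line lacks these words, so they were not members.

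All libraries came from 7-day-old Col-0 seedlings that carry UBQ10:NTF::ACT2:birA, a nuclear envelope tag and a biotin ligase under promoters active in most cell types, so that biotin-labelled nuclei of the whole seedling could be captured. The LD control grew with 16 h of light at 22 °C and 8 h of dark at 20 °C. From that regime also came the spray control, sprayed with 0.5% ethanol and left for 3 h, and the heat shock library, held for 30 min at 45 °C. Dark-grown seedlings had the same temperatures and were taken from the dark, after 30 min or 3 h of light, or after 24 h labelled LD, which may include the dark period of that regime. Captured nuclei were cut with DNase I, and 1 peak list was available per condition, with 26712 to 34637 nuclear peaks, nearly all 150 bp wide. With 1 library per condition there was no replicate error, and no test between conditions was possible. Intervals below are 95% Wilson intervals and cover counting error over genes or peaks only. The number of reads behind each list was unknown, and a peak's signal was compared only as its percentile within its own list. A peak in whole seedlings does not tell a place open in a few cells from one partly open in many.

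Proteins of the bHLH family bind DNA as dimers. The basic region reads E-boxes, short sites of the form CANNTG of which the G-box CACGTG is the best known, and the helix-loop-helix joins the partners. Members without a working basic region cannot bind DNA and act by binding other proteins of the family. In plants the family carries the jasmonate response, iron uptake, cell elongation under brassinosteroid and gibberellin, flowering, and the making of carpels, fruits and anthers.

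Peaks were counted from 1000 bp upstream to 200 bp downstream of each gene start, called the promoter window here, and over the gene from start to end, called the span. A promoter peak stood at 79 of the 114 members in the dark list (69.3%, interval 60.3 to 77.0%), against 60.7% of all genes. After 30 min of light the count was 73 (64.0%, against 62.3% of all genes), after 3 h it was 83 (72.8%, against 68.1%) and after 24 h it was 72 (63.2%, against 60.3%). Among the lists of LD-grown seedlings, 87 members had one in the LD control (76.3%, against 69.9%), 82 in the spray control (71.9%, against 67.9%) and 89 after heat shock (78.1%, interval 69.6 to 84.7%, against 68.1%). The members' share was the higher one in all 7 lists, and the interval left out the all-gene value in the heat shock list only. This direction depended on the window and on list length. From 500 bp upstream to 100 bp downstream, members were below all genes at 30 min (51.8%, against 55.4%), 3 h (57.9%, against 60.7%), 24 h (49.1%, against 53.5%) and in the spray control (59.6%, against 60.0%). After heat shock that window gave 61.4%, against 60.1%. With all lists shortened to 26712 peaks by signal, members were below all genes in the LD control (57.9%, against 59.3%) and the spray control (58.8%, against 59.4%). In the LD control, 25.4% of members had at least 2 promoter peaks, against 17.4% of all genes.

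**Figure D1:**
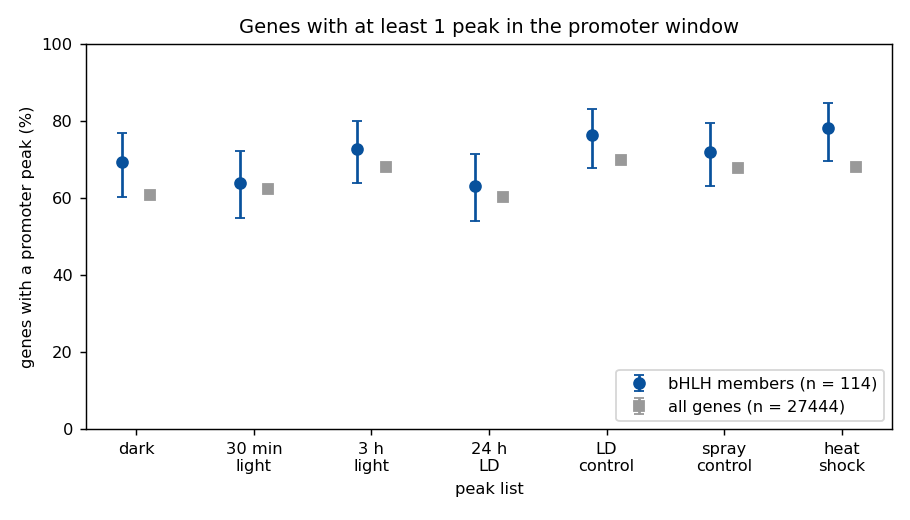
Share of genes with at least 1 peak in the promoter window (y axis, %) in each of the 7 peak lists (x axis), for the 114 bHLH members (blue circles) and all 27444 genes (grey squares), with 95% Wilson intervals that cover counting error over genes only. The members lie between 63.2% and 78.1%, above all genes in each list with this window, and their interval excludes the all-gene value only after heat shock.

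A promoter peak was present in all 7 lists at 61 members (53.5%, against 52.4% of all genes) and in none at 19 (16.7%, against 23.4%). The other 34 members had one in some lists only. At 16 members (14.0%, against 19.5%) no list held a peak in the promoter window or the span. Such a gene has no called peak, which does not show that its chromatin was closed in every cell.

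The regulators of the jasmonate response all had a promoter peak in all 7 lists. MYC2, MYC3 and MYC4 are the activators that JAZ proteins hold back, and JAM2 and JAM3 compete with them as repressors. MYC2 (AT1G32640, minus strand, start at position 11801407 of chromosome 1) carried the strongest peak of this group, in its 5′ UTR, with a midpoint between +272 and +372 in the 7 lists. Its signal stood at percentile 98.2 in the dark, 98.3 after 30 min, 98.7 after 3 h and 96.2 after 24 h of LD. The LD-grown lists had it at percentile 98.1 (LD control), 99.2 (spray control) and 98.1 (heat shock). This MYC2 peak was thus among the upper 4% of each list, and only its edge fell inside the promoter window in some of them. A second MYC2 peak near −508 was in 6 lists, from percentile 55.9 (LD control) to 88.2 after 30 min and after 24 h of LD, and was absent from the spray control list. MYC4 had a peak between −790 and −710 in every list, at percentiles 73.9 to 96.0, and JAM3 a weaker one between −145 and −25, at percentiles 20.2 to 45.1. At MYC3 the peak near the start was in all lists, while one at −807 was in the dark list (percentile 47.6), at 3 h of light (39.2) and in the spray control (41.7) only.

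Iron homeostasis was the largest named group, with 12 members, of which 9 had a promoter peak in every list and none lacked one throughout. bHLH38, bHLH39, bHLH100 and bHLH101 are partners of FIT in switching on iron uptake in the root. bHLH34, bHLH104, bHLH115 and ILR3 stand above them and activate their genes. PYE, bHLH11 and bHLH121 act in the same network, and NAI1, counted with this group, is known for the formation of endoplasmic reticulum bodies.

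bHLH100 (AT2G41240, chromosome 2, minus strand) had 3 separate promoter peaks with 3 different patterns. The peak between −781 and −721 was in all 7 lists, at percentile 89.1 in the dark, 92.1 after 30 min, 94.7 after 3 h and 93.8 after 24 h of LD, and at 85.0 (LD control), 78.3 (spray control) and 89.5 (heat shock) in LD-grown seedlings. A peak at −81 was in the 3 lists of LD-grown seedlings (percentiles 53.6 for LD control, 44.6 for spray and 41.3 for heat shock) and in no list of dark-grown ones. The peak at −521 was in the dark list (percentile 71.9), absent after 30 min, present after 3 h (78.4) and absent after 24 h, and among LD-grown seedlings both controls had it (61.8 for LD control, 67.9 for spray) and the heat shock list did not. That peak, at chr2:17199901-17200050 in TAIR10, holds 1 G-box, in capitals on the plus strand. It is shown because it was the strongest member peak lost at 30 min and at 24 h, and the second strongest lost after heat shock.

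bHLH100, peak at −521: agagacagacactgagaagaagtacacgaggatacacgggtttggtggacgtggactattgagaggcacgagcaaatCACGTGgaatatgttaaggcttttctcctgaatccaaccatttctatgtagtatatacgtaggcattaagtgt

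Among the other FIT partners, bHLH101 had a single peak at −82, in the 3 LD-grown lists and at 3 h of light, between percentiles 4.56 and 14.5. bHLH39 had a peak between −225 and −125 in all 7 lists at percentiles 14.4 to 50.7. Its neighbour bHLH38 had one between −1070 and −990 in the dark list, at 24 h of LD, and in the LD control and heat shock lists only, at percentiles 4.85 to 20.3. Of the genes above them, ILR3 had its peak at +101 or +121 in every list and bHLH115 had 2 promoter peaks in every list. bHLH104 had a peak in its 5′ UTR in every list, at +478 or +578, and a weak upstream one in 4 lists. Of 8 iron uptake and transport genes outside the family (FRO2, FRO3, NAS4, F6'H1, BTS, OPT3, IRT1 and AHA2), 4 had a promoter peak in all lists and 2 in none.

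**Figure D2:**
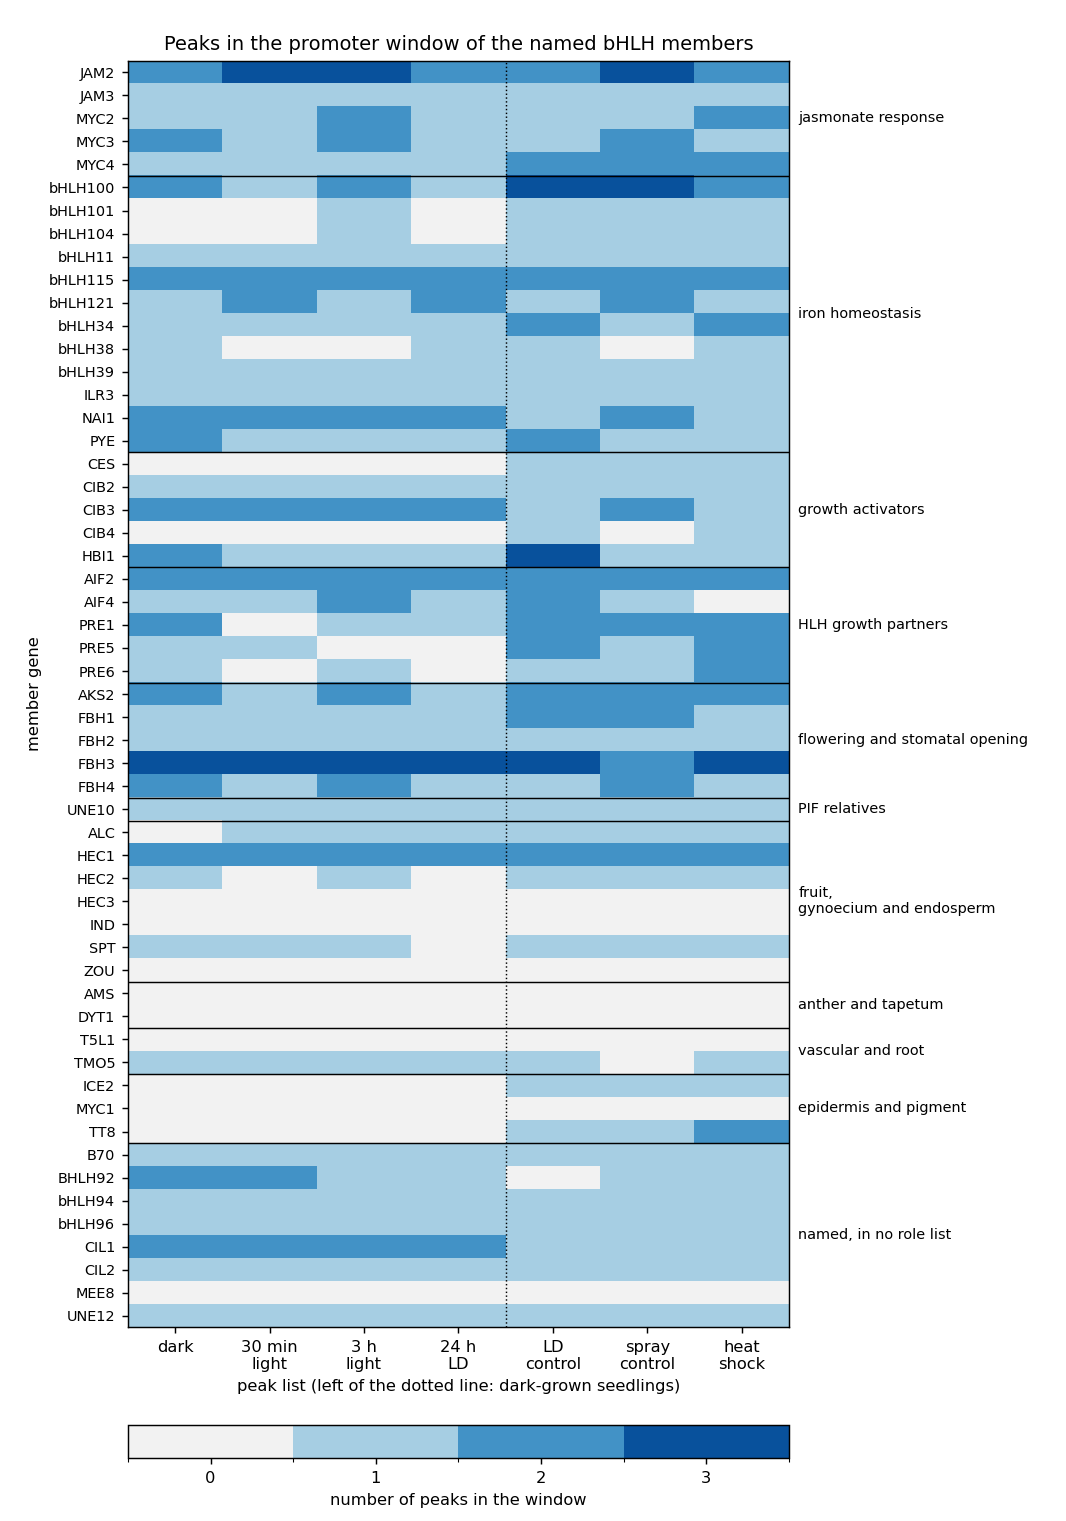
Number of peaks in the promoter window (colour, 0 to 3) of the 55 named members (rows, grouped by role) in the 7 peak lists (columns). Jasmonate and flowering genes carry peaks in every column, the anther genes AMS and DYT1 in none, and CES, ICE2 and TT8 only to the right of the dotted line that separates dark-grown from LD-grown seedlings.

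Growth regulators showed more differences between lists, several of them at weak peaks. The activators in this group were HBI1 and CES, which act in brassinosteroid responses, and CIB2, CIB3 and CIB4, relatives of the cryptochrome partner CIB1. Together, all 5 had a promoter peak in the LD control, 3 of 5 in each of the 4 dark-grown lists, 4 in the spray control and 5 in the heat shock list. CES and CIB4 had none in the dark-grown lists. The CIB4 peaks were weak, at −479 in the LD control (percentile 6.22) and at −659 after heat shock (10.6). The dark-grown lists were also shorter, with 26712 to 31336 nuclear peaks, against 32755 to 34637 in the LD-grown ones. A weak peak may be missing from a shorter list. HBI1 (AT2G18300, chromosome 2, minus strand) had peaks at −1070, −450 and +130 in the LD control, at percentiles 90.7, 97.1 and 71.8. The HBI1 peak near −450 stood at percentile 65.3 in the dark, 27.3 after 30 min and 42.3 after 3 h of light, was absent after 24 h, and stood at 88.9 (spray control) and 94.7 (heat shock) in LD-grown seedlings. The one at +130 was in the LD control only, and was the strongest member peak lost after heat shock; it was lost in the spray control as well. CES had 1 peak, at −215, in the 3 LD-grown lists (percentiles 20.1, 31.4 and 23.1) and none in the dark-grown ones. The CES peak lies at chr1:8882241-8882390 in TAIR10, upstream of a gene on the minus strand, and is printed on the plus strand as 1 of 5 promoter regions present in all 3 LD-grown lists and no other; it holds no CANNTG.

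CES, peak at −215: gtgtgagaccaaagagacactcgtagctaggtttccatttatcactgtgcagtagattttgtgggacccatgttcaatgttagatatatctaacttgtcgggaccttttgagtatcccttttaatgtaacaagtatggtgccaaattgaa

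The small partners without a DNA-binding basic region came in opposed kinds. PRE1, PRE5 and PRE6 promote elongation by binding growth inhibitors, and AIF2 and AIF4 are such inhibitors. Of these 5, the number with a promoter peak was 5 in the dark, 3 after 30 min, 4 after 3 h and 3 after 24 h of LD, and 5, 5 and 4 in the LD control, spray control and heat shock lists. PRE1 (AT5G39860, chromosome 5, plus strand) had peaks near −53 and near −873 in the dark, both low in that list, at percentiles 15.8 and 9.15. After 30 min of light PRE1 had no peak, after 3 h 1 at −33 (percentile 30.9) and after 24 h 1 at −93 (7.12). All 3 LD-grown lists held both PRE1 peaks, the one near the start at percentiles 51.1 to 61.7. PRE6 lacked a promoter peak at 30 min and 24 h and PRE5 at 3 h and 24 h, again with dark peaks at the low end, at percentiles 6.17 for PRE6 and 9.15 for PRE5. AIF2 was marked in every list, at −469 or −549 and at +151. The AIF4 peak near +194 to +234 was in all lists except heat shock.

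FBH1, FBH2, FBH3 and FBH4, which activate CONSTANS in the flowering pathway, and AKS2, which acts with FBH3 on potassium channel genes of guard cells, all had a promoter peak in all 7 lists. FBH3 had 3 promoter peaks, at −663, −423 and close to the start, in every list except the spray control, which lacked the one at −423. Its peak at −663 stood at percentiles 98.3, 98.3, 97.1 and 96.5 in the dark-grown lists and at 87.8, 77.4 and 77.1 in the LD control, spray control and heat shock lists. FBH4 had its main peak near −915 in all lists, at percentiles 75.2 to 87.8, and a peak at −595 (percentile 38.4) in the dark list alone. That place, chr2:17614181-17614330 in TAIR10, is shown on the plus strand as a promoter peak found in no list other than the dark one; the capitals mark its only E-box.

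FBH4, peak at −595: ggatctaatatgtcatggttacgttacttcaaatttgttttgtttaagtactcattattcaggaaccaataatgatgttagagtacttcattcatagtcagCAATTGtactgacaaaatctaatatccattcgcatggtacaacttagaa

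UNE10, a close relative of the phytochrome-interacting factors, had a 5′ UTR peak between +16 and +96 in every list, at percentiles 18.5 to 55.7, and an intron peak in 6 of 7.

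Of the 9 genes known from anthers, carpels, fruits or endosperm, organs that seedlings lack, 4 had no peak in any list and 5 had peaks in 5 lists or more. Over all genes, 19.5% had no peak in any list, and 9 genes are too few to set against that share. AMS and DYT1, regulators of the anther tapetum, had no peak in any list. ZOU, which acts in endosperm breakdown, and IND, which patterns the fruit valve margin, had none either. HEC1, which works with SPT in the female reproductive tract, had a peak at −517 in all 7 lists. Its percentile was 55.9 in the dark, 55.2 and 83.3 after 30 min and 3 h of light and 48.7 after 24 h of LD. In the LD control, spray control and heat shock lists it was 88.6, 95.5 and 94.1. HEC2 had a peak near −518 in 5 lists and lacked it at 30 min and 24 h of LD, and HEC3 had peaks at or past the 3′ end only. SPT had a peak in all lists except 24 h of LD.

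ALC (AT5G67110, chromosome 5, minus strand), a fruit valve margin gene related to SPT, had no peak in the dark list and 1 at the start in the other 6. Its percentile was 16.9 after 30 min, 36.8 after 3 h and 12.2 after 24 h of LD, and 37.9, 40.5 and 56.4 in the LD control, spray control and heat shock lists. When overlapping peaks of the 7 lists were joined into 166 promoter regions, that of ALC was the only 1 with no dark peak and a peak at each of the 3 later times (0.602%, against 2.03% of the promoter regions of all genes). The place of the 3 h peak, chr5:26786401-26786550 in TAIR10, is shown for that reason on the plus strand, and it holds no CANNTG.

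ALC, peak at −44: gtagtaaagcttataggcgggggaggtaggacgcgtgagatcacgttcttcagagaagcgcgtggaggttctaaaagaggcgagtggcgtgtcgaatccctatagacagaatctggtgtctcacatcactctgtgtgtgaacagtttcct

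TMO5, which with LHW drives cell divisions in the young vascular tissue, had a peak between −504 and −464 in all lists except the spray control, at percentiles 9.11 to 51.1. Its relative T5L1 had no peak in any list. Of the epidermis and pigment genes, MYC1, a trichome regulator, had no peak in any list, and ICE2 and TT8 had peaks in LD-grown lists only. TT8, the bHLH partner in the complex that switches on anthocyanin and proanthocyanidin genes, had a peak at +14 in the LD control (percentile 19.5), at −6 in the spray control (11.0) and at −106 and −826 after heat shock (16.6 and 1.26). These TT8 percentiles are all in the lower 20% of their lists, and peaks this weak may be missing from the shorter dark-grown lists. The LD control peak, chr4:6181821-6181970 in TAIR10 on the plus strand of a plus-strand gene, holds no CANNTG and is shown as a peak over a gene start that was absent from all dark-grown lists.

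TT8, peak at +14: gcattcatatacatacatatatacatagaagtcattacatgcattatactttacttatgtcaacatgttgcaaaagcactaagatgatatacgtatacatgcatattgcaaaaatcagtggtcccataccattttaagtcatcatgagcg

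In all, 8 members had promoter peaks in LD-grown lists only (7.02%, against 6.32% of all genes): CES, CIB4, ICE2, TT8, AT1G10585, AT1G27660, AT3G61950 and AT5G65320. Their share was near that of all genes. The reverse, dark-grown lists only, was seen at 1 member, AT3G21330 (0.877%, against 2.22% of all genes), with a single peak at 3 h of light.

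Neighbouring members did not share their marks in every case. There were 8 runs of adjacent members, with 20 genes. In the pair DYT1 and B70, the second had a promoter peak in all lists and the first in none. AT2G22750 had none, while AT2G22760 and NAI1 next to it had one in all 7. In the run AT4G28790, AT4G28800, AT4G28811 and AT4G28815 the number of lists with a promoter peak was 7, 4, 5 and 6.

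Comparisons between lists used peaks that overlapped no peak of the other list: gained if present in the treated list, lost if present in the reference. The question of the light series was which open places change when dark-grown seedlings are moved to light; its 3 comparisons share the dark library. After 30 min, 11 members had a gained promoter peak (9.65%, against 6.80% of all genes) and 19 a lost one (16.7%, interval 10.9 to 24.6%, against 5.90% of all genes). After 3 h the counts were 17 gained (14.9%, against 13.6%) and 17 lost (14.9%, interval 9.52 to 22.6%, against 6.34%). After 24 h they were 9 gained (7.89%, against 7.45%) and 23 lost (20.2%, interval 13.8 to 28.5%, against 11.0%). The intervals of the gains held the share of all genes, and losses per gene were above it at all 3 times. Members have more promoter peaks per gene, and the losses per peak are given below.

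The same measure between the spray control and the LD control, which differ neither in light regime nor in heat, gave 18 members with a gained promoter peak (15.8%, against 9.77% of all genes) and 27 with a lost one (23.7%, interval 16.8 to 32.3%, against 11.0%). Members thus also exceeded all genes in losses where the light regime was the same. Dark against LD control gave 15 gained (13.2%, against 7.97%) and 26 lost (22.8%, against 18.8%). In other families of transcription factors, a lost promoter peak at 30 min was found at 8.33% of 72 WRKY genes, 3.75% of 80 NAC domain genes and 4.48% of 67 AP2/ERF genes. At 3 h the shares in that order were 16.7%, 6.25% and 1.49%, against 14.9% of members, and at 24 h they were 15.3%, 12.5% and 2.99%. Between spray and LD control they were 6.94%, 5.0% and 8.96%. These shares are per gene, and the promoter peaks of those families were stronger in the dark list. Their median percentiles there were 72.2, 63.9 and 53.0, against 40.1 for members. None of the 17 bHLH genes set aside lost a promoter peak at 30 min, and 4 did in the spray control.

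**Figure D3:**
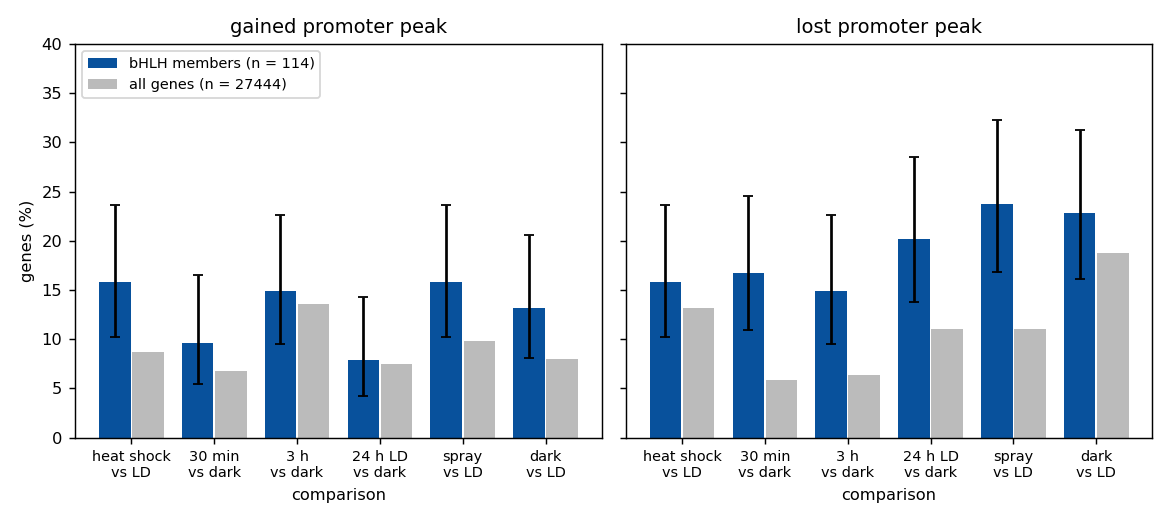
Share of genes (y axis, %) with a gained (left) or lost (right) promoter peak in 6 comparisons of peak lists, for the 114 bHLH members (blue, with 95% Wilson intervals over genes) and all 27444 genes (grey). Lost shares of members lie above those of all genes in each comparison, among them 16.7% against 5.90% at 30 min and 23.7% against 11.0% in the spray control. Counted per promoter peak, which is not drawn, losses were below for heat shock (15.4%, against 16.2%) and dark against LD control (22.0%, against 23.9%).

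Member peaks were weaker than promoter peaks at large, and most called peaks were weak ones. The median percentile of a member's promoter peak was 40.1 in the dark list, against 52.0 over the distinct promoter peaks of all genes, and 46.6 against 54.4 in the LD control. Of 111 member promoter peaks in the dark list, 20 were lost at 30 min (18.0%, interval 12.0 to 26.2%, against 8.26% of all promoter peaks). Of these 20, 19 lay in the lower 50% of the dark list by signal, where 65 member peaks stood (29.2%, interval 19.6 to 41.2%, against 15.1% of all promoter peaks there). In the upper 50%, 1 of 46 was lost (2.17%, interval 0.385 to 11.3%, against 1.88%). In the promoter window the difference at 30 min was thus seen among weak peaks. Whether strong promoter peaks differ cannot be told from 1 lost peak. Over the span, with only peaks of the upper 50% called, 3.51% of members had a lost peak at 30 min, against 0.357% of all genes. Over all member promoter peaks, 15.3% were lost at 3 h (interval 9.79 to 23.2%, against 8.81%), 20.7% at 24 h (interval 14.2 to 29.2%, against 15.3%) and 22.0% in the spray control (interval 15.5 to 30.1%, against 13.8%), so at 24 h the interval held the share of all promoter peaks. In the lower 50%, 23.1% were lost at 3 h (interval 14.5 to 34.6%, against 14.5%), 32.3% at 24 h (interval 22.2 to 44.4%, against 26.3%) and 35.9% in the spray control (interval 25.3 to 48.2%, against 26.1%). The last 2 intervals held the share of all weak promoter peaks. Among weak promoter peaks of WRKY, NAC domain and AP2/ERF genes, 19.2%, 12.0% and 12.5% were lost at 30 min. At 3 h these shares were 26.9%, 16.0% and 4.17%, and at 24 h 34.6%, 32.0% and 8.33%. In the spray control they were 12.1%, 13.6% and 22.2%. WRKY genes were thus above members at 3 h and 24 h, on 22 to 33 weak peaks per family. Per promoter peak, members were below all promoter peaks in losses after heat shock (15.4%, against 16.2%) and for dark against LD control (22.0%, against 23.9%). Many of the places lost at 30 min held a peak in another list: of the 20, 11 had one at 3 h, 7 at 24 h and 14 in the separately grown LD control. The same shares were not counted over all lost promoter peaks, so these counts do not set members apart.

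The member peaks lost at 30 min with the highest signal in the dark list were those of bHLH100 at −521 (percentile 71.9), MYC3 at −807 (47.6), FBH4 at −595 (38.4), NAI1 at −187 (37.4) and AT4G37850 at −74 (35.5). The strongest gained ones were AT3G57800 at +149 (percentile 62.2 in the 30 min list), JAM2 at −351 (51.2), AT1G61660 at +52 (50.4), AT5G56960 at −738 (39.1) and AT4G29930 at −19 (26.0). JAM2 kept the peak at −351 at 3 h (46.4), lacked it at 24 h, and had it among LD-grown seedlings in the spray control only (53.9).

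At 3 h the strongest gained peaks were AT1G61660 at −128 (percentile 67.0), AT2G31730 at −876 (60.0), AT4G29930 at −19 (59.3), JAM2 at −351 (46.4) and AT5G57150 at −239 (42.3). The strongest lost ones were AT1G61660 at −308 (63.0), AT4G25410 at −46 (58.2), AT5G10570 at −845 (43.3), BHLH92 at −139 (42.4) and FBH4 at −595 (38.4). AT1G61660 was in both sets: its single promoter peak stood at −308 in the dark and at −128 after 3 h, so that a move within the promoter was counted as a loss and a gain.

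At 24 h the strongest gained peaks were AT5G56960 at −738 (percentile 51.9), bHLH121 at −382 (50.7), AT5G57150 at −199 (48.2), AT1G03040 at −386 (41.7) and AT4G29100 at −156 (33.8). Lost were, by signal in the dark list, those of bHLH100 at −521 (71.9), HBI1 at −450 (65.3), MYC3 at −807 (47.6), AT4G29100 at −616 (45.9) and AT5G10570 at −845 (43.3).

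**Figure D4:**
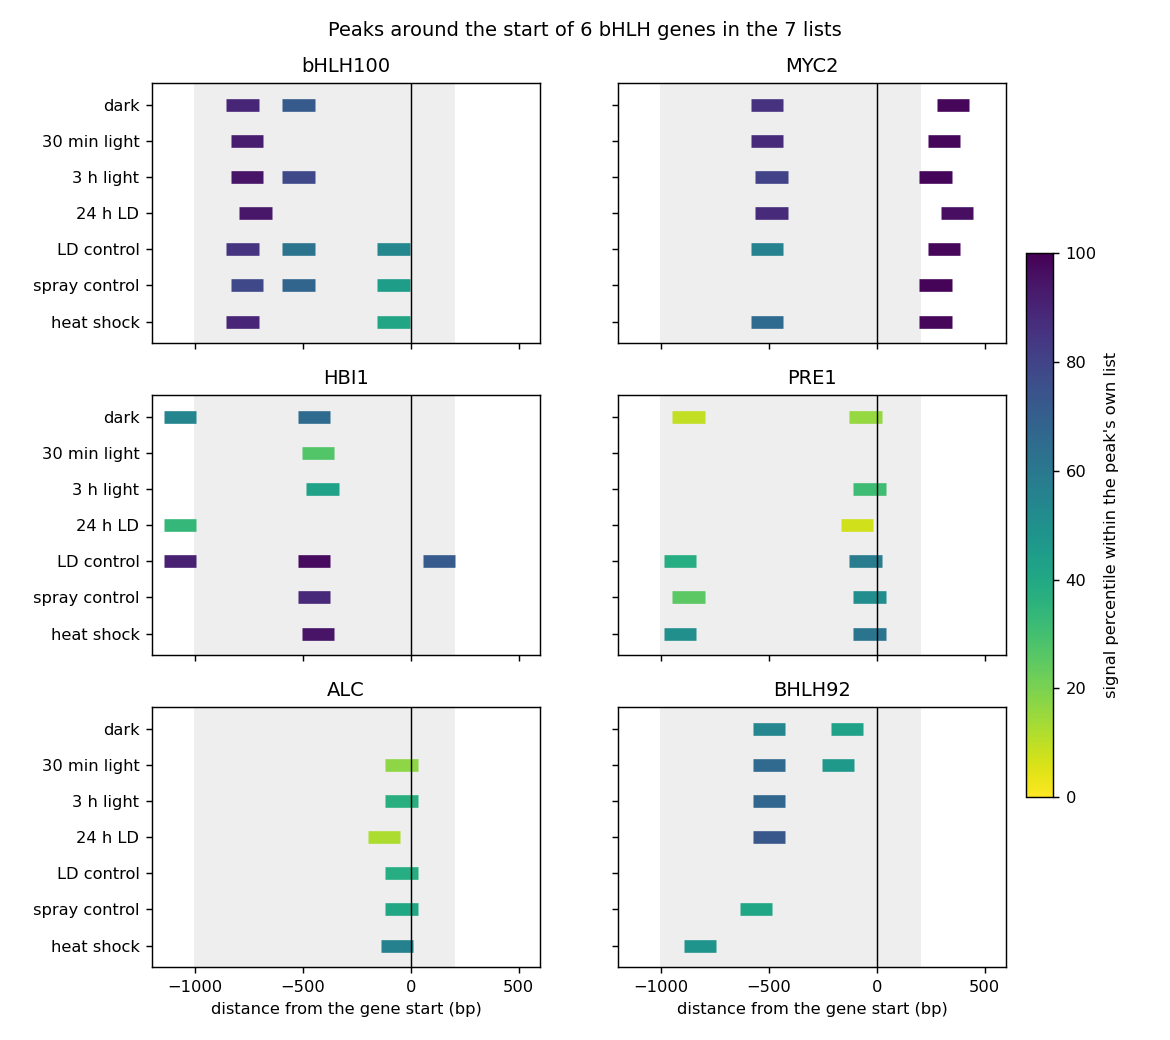
Peaks around the gene start of 6 members in the 7 lists: x axis, distance from the gene start in bp; rows, peak lists; bar, a 150 bp peak, coloured by the percentile of its signal within its own list; grey, the promoter window. bHLH100 at −521 and PRE1 drop out at 30 min, ALC has no peak in the dark row, and BHLH92 has its heat shock peak at −819.

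Heat shock against the LD control asked which places open or close within 30 min at 45 °C. A gained promoter peak was found at 18 members (15.8%, interval 10.2 to 23.6%, against 8.70% of all genes) and a lost one at 18 (15.8%, against 13.2%), and 7 members were in both sets. Per peak, 20 of 124 were gained (16.1%, interval 10.7 to 23.6%, against 11.4% of all promoter peaks), and this interval held the share of all promoter peaks. The spray control, with no heat, gave the same count of members with a gain, 18. Of 20 gained member peaks, 19 were in the lower 50% of the heat shock list, as were 1790 of 2240 gained promoter peaks of all genes. Among the 20, 6 had a peak in the spray control and 8 were in no other list. Of the 166 joined promoter regions of members, 4.82% were in the heat shock list only (interval 2.46 to 9.22%), against 2.65% of those of all genes. Of 19 lost ones, 10 had a peak in the spray control. Presence of called heat peaks in the spray control was counted for members only.

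The strongest gained heat peaks were AT5G56960 at −738 (percentile 59.7), AT2G31730 at −496 (49.5), AT1G61660 at +52 (49.1), BHLH92 at −819 (48.1) and AT4G29100 at −616 (42.7). Of these 5 places, that of BHLH92 had a peak in no other list. BHLH92 (AT5G43650, chromosome 5, minus strand) had no promoter peak in the LD control and 1 at −559 in the spray control (40.8). In the 4 dark-grown lists it had 1 at −499 at percentiles 54.1 to 72.8, with another at −139 in the dark and −179 at 30 min. The heat shock peak, chr5:17535541-17535690 in TAIR10, is given on the plus strand as the strongest member promoter peak found in that list alone, and it holds no CANNTG.

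BHLH92, peak at −819: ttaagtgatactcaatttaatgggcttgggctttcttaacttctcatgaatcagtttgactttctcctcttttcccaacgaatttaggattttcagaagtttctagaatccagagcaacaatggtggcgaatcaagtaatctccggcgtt

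The strongest lost heat peaks were HBI1 at +130 (percentile 71.8 in the LD control), bHLH100 at −521 (61.8), AIF4 at −866 (42.8), CIL1 at −741 (35.2) and AT4G37850 at −34 (30.5). CIL1, a relative of CIB1, had its other peak, at −61 or −81, in every list except the LD control, so the heat shock list had 1 peak gained and 1 lost there.

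Over the span, lost peaks in the light series were again more frequent among members than among all genes. Gained and lost span peaks were found at 10 members (8.77%, against 5.80% of all genes) and 17 (14.9%, against 4.36%) after 30 min, at 16 (14.0%, against 11.0%) and 17 (14.9%, against 4.42%) after 3 h, and at 9 (7.89%, against 5.56%) and 20 (17.5%, against 8.10%) after 24 h. Heat shock gave 11 gained (9.65%, against 6.45%) and 23 lost (20.2%, against 16.0%). Spray control gave 18 gained (15.8%, against 11.4%) and 20 lost (17.5%, against 11.9%), and dark against LD control 15 gained (13.2%, against 5.06%) and 27 lost (23.7%, against 20.4%). Per span peak, members were below all genes in losses after heat shock (24.3%, against 25.3%) and for dark against LD control (31.1%, against 32.8%). Gains at 3 h were equal, at 19.5%. In the other span counts members were above, among them losses at 30 min (19.8%, against 8.59%), 3 h (19.8%, against 8.92%) and 24 h (24.4%, against 16.4%). The first 200 bp of a gene lie in both windows, so promoter and span counts are not separate.

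Member peaks lay farther from the gene start than those of other genes. In the LD control the median midpoint of a promoter peak was −308 for members and −103 for all genes, and 39.8% of 123 member peaks lay within 200 bp of the start, against 58.9%. The median space to the next gene upstream was 2506 bp for members and 1112 bp for all genes. Of the members' promoter peaks in the LD control, 5.69% were nearer to the start of another gene, against 15.9%. The part of that space in the difference of position was not tested.

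**Figure D5:**
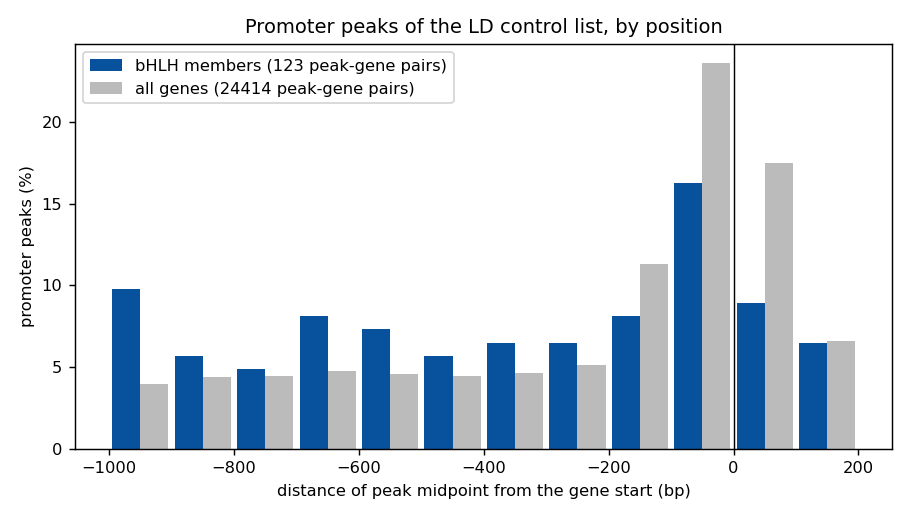
Promoter peaks of the LD control list by distance of the midpoint from the gene start (x axis, bp, bins of 100 bp) as a share of peaks (y axis, %), for 123 member peaks (blue) and 24414 peak-gene pairs of all genes (grey). Members have 16.3% of their peaks in the last 100 bp before the start and are spread over the rest of the window, with 9.76% in the farthest bin.

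Peaks inside the genes were more often intronic: 9.04% of the members' peaks in the dark list and 8.42% in the LD control had their midpoint in an intron, against 4.40% and 4.86% for all genes. AT3G57800 had the most peaks of any member, 4 to 7 over promoter window and span in the 7 lists, of which up to 4 lay in introns. AT2G42300 followed with 4 to 6, and at least 3 of them in every list were in the promoter window. AT2G31730 had 2 to 5, and AT5G56960, AT5G57150 and AT5G62610 reached 5 as well.

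Letters bound by the family itself were counted in the central 150 bp of promoter peaks; each motif below was searched on both strands. The G-box CACGTG was in 13.5% of 111 member peaks in the dark (interval 8.36 to 21.1%), against 10.3% of all promoter peaks, and over the 7 lists in 11.0 to 13.9% of member peaks. The E-box CANNTG, which includes the G-box, was in 55.0% of member peaks in the dark (interval 45.7 to 63.9%), against 47.5%, and in 45.9% at 3 h, against 45.4%. CACATG, another E-box form, was in 9.91% of member peaks in the dark, against 9.95%. The G-box interval held the all-peak share in all 7 lists. Of the 6 peaks printed above, the bHLH100 peak has the only G-box. A letter match does not show that a protein was bound.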

How the data were processed

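DNase I-seq was listed for 14 samples in 7 conditions, and the single-end and paired-end entries of a condition held byte-identical peak files, so each condition counted as 1 library. The 6 RNA-seq samples are not analysed here. Per the submitters' processing notes, Bowtie 0.12.7 and CASAVA 1.8.2 were used with the TAIR10 build. A peak caller, a threshold or read filters were not given in the sources used. Some samples were brought to equal read depth, by the series description, without a mark in the labels that tells which. The deposited narrowPeak signal is a whole number per peak, and its median runs from 148 to 1036 between lists, so it was used only as a percentile within a list. The authors' −log10 p-value column, deposited beside it, ends at 324 and was not used for ranking.

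Gene starts and ends were those of RefSeq's TAIR10.1 annotation. Moving all peaks by 5000 bp lowered the share of dark peaks in promoter windows from 59.8% to 27.8%. Sequences were read from the same genome at the peaks' own 1-based coordinates. Gained and lost peaks overlapped no peak of the other list by at least 1 bp. Counts were made with python 3.11.15 and pandas 2.3.3, intervals with scipy 1.17.1, and the calling step was tested on simulated peaks. Peak numbers per list stand in for depth, which limits precision: a weak peak may be missing from a shorter list.

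Members and role lists were chosen with earlier results of these data known. In full are given, per main comparison and direction, up to 5 varying members with the highest percentile, the members with the most peaks, and MYC2, HBI1, PRE1, TMO5, TT8, FBH3, SPT and UNE10. Alternatives changed the overlap, the window, list length, peak strength, distance, gene assignment and letter case.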

Additional observations from a re-analysis of the deposited data

How the results depend on the processing

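No paired analysis was possible because each condition had 1 library and no test between conditions was made. No replicate could be left out for the same reason. The numbers of members with a promoter peak in each list changed by less than 1.5 times in every setting tried for them, but their place beside all genes turned in 4 of 7 lists with the narrower window and in 2 of 7 with lists of equal length. Among gained and lost counts, 24 of 24 moved when only peaks from the upper 50% of their own list were called. In the promoter window, gained members then numbered 1 (heat shock), 3, 3 and 2 (30 min and 3 h of light, 24 h of LD), 3 (spray control) and 3 (dark against LD control), and lost members 2, then 1, 2 and 2, then 4 and 4. Over the span the gained counts in that order were 2, 3, 5, 2, 2 and 3, and the lost counts 3, 4, 6, 3, 4 and 7. These span shares were above those of all genes in every comparison. At 30 min they were 2.63% gained (against 0.364%) and 3.51% lost (against 0.357%), and at 3 h 4.39% (against 0.732%) and 5.26% (against 0.7%). Per strong promoter peak, the called share of members ran from 1.59% (heat shock gained) to 6.98% (30 min gained, interval 2.4 to 18.6%). Over all strong promoter peaks these shares were 4.37% and 1.77%. Of the strong member peaks in the dark list, 2.17% were lost at 30 min (interval 0.385 to 11.3%), against 1.88%. Of those in the LD control, 6.78% were lost in the spray control (interval 2.67 to 16.2%), against 3.57%. In the promoter window of this setting, shares of members were below those of all genes for heat shock gained (0.877%, against 1.81%) and lost (1.75%, against 2.74%), 24 h lost (1.75%, against 1.88%) and dark against LD control lost (3.51%, against 3.56%). In the other promoter counts of this setting they were above. With all lists shortened to 26712 peaks by signal, lost promoter peaks stood at 10 members after heat shock (8.77%, against 10.2%). Gained ones stood at 14 members after 24 h (12.3%, against 9.39%). Dark against LD control then gave 23 gained (20.2%, against 10%) and 17 lost (14.9%, against 11.2%). Over the span, that setting gave 6 gained in the spray control (5.26%, against 7.26%) and 13 lost at 24 h (11.4%, against 5.64%). Asking for 75 bp of overlap raised heat shock to 31 gained (27.2%, against 14.5%) and 31 lost (27.2%, against 18.7%) in the promoter and 19 gained over the span (16.7%, against 10.1%). It raised 24 h of LD to 16 gained in the promoter (14.0%, against 14.7%) and 16 over the span (14.0%, against 10.1%), and put 30 min gained at 10.5%, against 10.6%. A window of 500 bp upstream to 100 bp downstream gave 8 gained (7.02%, against 5.75%) and 11 lost (9.65%, against 8.97%) after heat shock. At 3 h it gave 11 gained (9.65%, against 10.5%) and 11 lost (9.65%, against 4.04%). At 24 h it gave 14 lost (12.3%, against 7.65%) and 5.26% gained (against 5.82%), and in the spray control 16 lost (14.0%, against 7.2%). The settings that asked for more than 150 bp to the next peak, that gave a peak to the nearest gene start, or that matched the product in its letter case (chosen after seeing the data) moved no count by 1.5 times. The cause of the shifts under equal length, overlap and window was not tested.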
